A study of Mus musculus with 18 samples.

Results

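The cytosolic ribosomal protein genes encode the proteins of the large and the small subunit of the ribosome that translates nuclear mRNA. Members were the genes whose symbol is Rpl or Rps with a number, with or without a short suffix, or Rpsa, Rplp0, Rplp1 or Rplp2, with pseudogenes left out and a mean of 5 CPM or more over the 18 libraries (CPM, counts scaled to a common library total). In all, 83 protein-coding genes had such a symbol and 79 of 39017 gene identifiers met the rule, 48 of the large and 31 of the small subunit. The 4 left out by level were Rps27l at 3.39 CPM, just under the minimum, Rpl3l at 0.177 CPM, Rpl39l at 0.00534 CPM and Rpl10l at 0 CPM, and the member just above it was Rpl7l1 at 15.3 CPM. Another 5 matching symbols were annotated pseudogenes, and some genes that also encode ribosomal proteins, such as Fau and Rpl36al, fall outside the symbol pattern. All 79 members passed the filter on low counts in every comparison, so none was lost to it.

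The libraries hold RNA obtained by translating ribosome affinity purification (TRAP), in which a tagged ribosomal protein is pulled from the lysate of a chosen cell type together with the ribosome and the mRNA on it. The mice differed in the vector they received, 1 library was made per mouse with both entorhinal cortices pooled, and every vector carried mCherry. The silencing experiment has 4 libraries from mice with a Ptbp1 shRNA vector and 5 with a scrambled shRNA vector. The overexpression experiment has 5 with a vector for Ptbp1 itself and 4 with its control. The labels name neither strain, sex and age nor the ribosome tag, the cells that carry it and the time after injection, and 1 Ptbp1 shRNA mouse and 1 control mouse had been excluded by the submitters for want of mCherry reads. The series names entorhinal cortex layer II neurons, whereas the tissue label of each library reads hippocampus.

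Ribosomal proteins are made in equal numbers, 1 of most of them per ribosome, and their mRNAs are among the most abundant and shortest of a cell. Their transcripts begin with a C followed by a run of pyrimidines, the 5′ terminal oligopyrimidine (TOP) motif, through which the kinase mTOR and the binding protein Larp1 set how strongly they are translated. In neurons the same mRNAs are also found in dendrites and axons. A count in TRAP RNA reflects both the amount of an mRNA and its load on tagged ribosomes, which these data cannot tell apart, and neither can fewer cells of a type be told apart from less RNA per cell. Ptbp1, the polypyrimidine tract binding protein altered by the vectors, binds runs of pyrimidines in RNA, mostly in introns.

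The start of a ribosomal protein gene is shown for members at both ends of the comparisons given further on. Each window has 30 bases, 15 before and 15 from the annotated start site on, on the gene's strand, from RefSeq on build GRCm38.p6, and capitals mark the longest run of C and T that reaches within 5 bases of the start. Rps6, Rps27 and Rpl38 are shown as starts with a long run, which most members with a window lack. Rps10, Rps12 and Rplp2 lay at the ends of the silencing comparison, and Rpl39, Rpl22l1, Rpl5 and Rpl31 were the members that passed the test as higher in scrambled shRNA than in control overexpression libraries. The windows lie at chr4:86857353-86857382 on the minus strand (Rps6), chr3:90213634-90213663 minus (Rps27), chr11:114668565-114668594 plus (Rpl38), chr17:27635230-27635259 minus (Rps10), chr10:23787195-23787224 minus (Rps12), chr7:141447636-141447665 plus (Rplp2), chrX:37085208-37085237 minus (Rpl39), chr3:28805493-28805522 plus (Rpl22l1), chr5:107900513-107900542 plus (Rpl5) and chr1:39367836-39367865 plus (Rpl31).
Rps6: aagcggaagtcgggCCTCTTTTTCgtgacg
Rps27: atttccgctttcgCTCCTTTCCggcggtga
Rpl38: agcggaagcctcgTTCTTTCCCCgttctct
Rps10: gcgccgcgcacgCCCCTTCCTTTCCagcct
Rps12: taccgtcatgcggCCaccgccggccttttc
Rplp2: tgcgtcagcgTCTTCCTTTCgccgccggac
Rpl39: cctaagctccgCCTCTagcgacttcttcta
Rpl22l1: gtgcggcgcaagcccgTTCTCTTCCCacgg
Rpl5: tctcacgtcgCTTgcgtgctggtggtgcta
Rpl31: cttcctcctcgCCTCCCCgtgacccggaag
RefSeq held such a window for 59 members. A run of at least 8 C or T was present in 20 of them (33.9%), against 9.3% of 27025 genes with a window. A C at the annotated start followed by at least 4 further C or T was found in 12 members (20.3%), against 2.49% of all genes, and only the strand of the gene was searched. The search reads letters at annotated starts and says nothing of where transcription starts in these neurons.

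Total gene counts were 34339355 to 46544178 in the silencing libraries and 18288627 to 39056655 in the overexpression libraries, and no member had under 10 counts in any library. Ptbp1 had 97.6 to 130 CPM in the Ptbp1 overexpression libraries against 8.27 to 14.4 CPM in their controls. In the libraries labelled Ptbp1 shRNA it had 0.12 to 15.6 CPM against 0.417 to 10.8 CPM in the scrambled ones, so these libraries are named by their label only and directions there belong to the label. Over the libraries, summed levels of 12 markers of superficial excitatory neurons were 2800 to 4213 CPM with the Ptbp1 shRNA and 5140 to 7266 CPM with the scrambled shRNA, and those of 11 astrocyte markers 485 to 1185 CPM against 1069 to 1647 CPM. Summed levels of 9 hippocampal markers were 97.6 to 162 CPM with the Ptbp1 shRNA, 177 to 260 CPM with the scrambled shRNA and 250 to 298 CPM in the overexpression experiment. Of the markers tested for the shRNA, 10 excitatory ones were lower and 2 higher, 7 and 3 of the astrocyte ones, and 4 and 2 of the hippocampal ones. Interneuron markers had 9 lower and 1 higher, oligodendrocyte markers 6 and 1, and microglial markers 2 and 1. The 3 vessel markers tested were higher. Markers of microglia (11 genes, at most 31.1 CPM summed) and vessels (10 genes, at most 33.8 CPM summed) were low in every library, and those of interneurons (12 genes, 322 to 772 CPM) and oligodendrocytes (11 genes, 77.0 to 166 CPM) were present in all. In the silencing libraries Trem2, C1qa, Cldn5, Ly6c1 and Mag were at 0 in every library of both groups. Per the labels each library is a separate mouse.

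The first question was how much of the TRAP RNA the members made up (share of gene counts, plotted by library). They held 0.505% ± 0.0664 of gene counts in Ptbp1 shRNA and 0.432% ± 0.0336 in scrambled shRNA libraries (SD, n = 4 and 5), with ranges of 0.44 to 0.596% and 0.378 to 0.459% that overlap. In the overexpression experiment they held 1.11% ± 0.0867 with Ptbp1 and 1.04% ± 0.108 with the control vector (SD, n = 5 and 4), with ranges of 1.02 to 1.24% and 0.892 to 1.15%. Every overexpression library lay above every silencing library. The lowest value of the overexpression experiment, 0.892%, was that of control overexpression replicate 2, and the other 3 controls had 1.06 to 1.15%.

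The balance of the subunits was given by the counts of large-subunit members over those of small-subunit members. It was 2.47 ± 0.176 in scrambled shRNA and 1.99 ± 0.0950 in Ptbp1 shRNA libraries (SD, n = 5 and 4). The scrambled libraries had 2.61, 2.66, 2.38, 2.22 and 2.46 and the Ptbp1 shRNA libraries 2.11, 2.02, 1.96 and 1.88, so the groups did not overlap. Abundant members weigh most in such sums. A measure that weighs members alike took the log2 level of each against its mean in the scrambled libraries. The small-subunit median minus the large-subunit median was then 0.0366 to 0.354 with the Ptbp1 shRNA. With the scrambled shRNA it was -0.118 to 0.195, so by this measure the groups overlapped. The share of small-subunit members was 0.148 to 0.207% in the Ptbp1 shRNA and 0.117 to 0.133% in the scrambled libraries, and that of large-subunit members overlapped at 0.291 to 0.389% and 0.26 to 0.332%. In the overexpression experiment the ratio was 2.03 ± 0.0140 with Ptbp1 and 2.10 ± 0.0881 with the control vector, with overlapping ranges. These sums over members are a description and were not tested. The sums of excitatory neuron and hippocampal markers given above did not overlap between these labels either, and those of astrocyte markers overlapped at 485 to 1185 and 1069 to 1647 CPM. The mitochondrial share of gene counts was 0.527 to 0.949% with the Ptbp1 shRNA and 0.184 to 0.537% with the scrambled shRNA. The part of these in the difference was not tested.

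**Figure D1:**
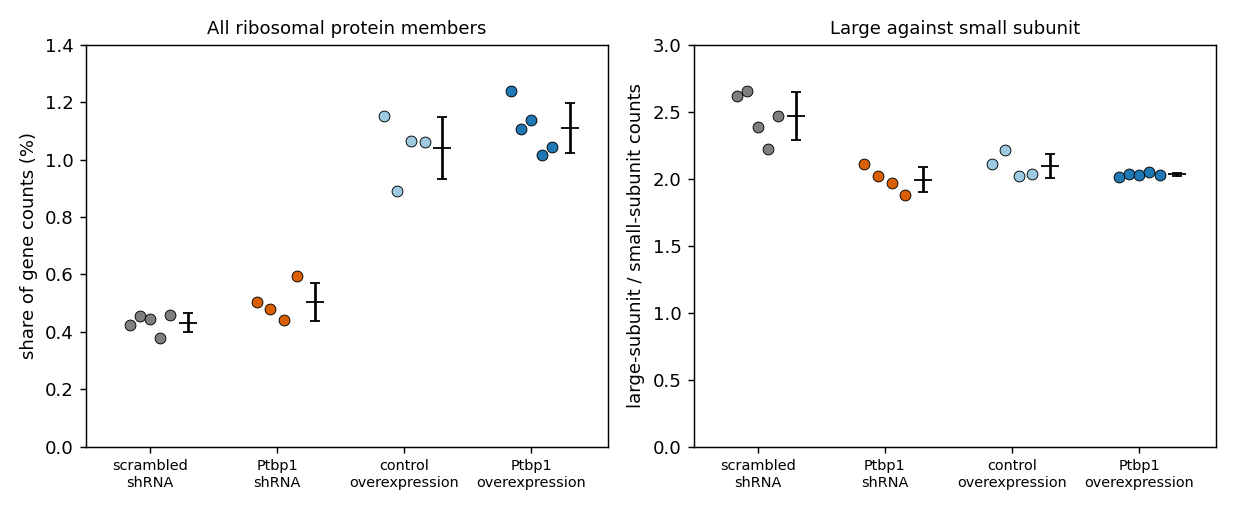
Share of gene counts in the 79 members (left, percent) and counts of large-subunit over small-subunit members (right, ratio) in each library, with points for libraries and bars for the mean ± SD beside them. The overexpression libraries hold 0.892 to 1.24% and the silencing libraries 0.378 to 0.596%, and the ratio of every scrambled library (2.22 to 2.66) is above that of every Ptbp1 shRNA library (1.88 to 2.11).

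Levels of single members were compared per length, as CPM per kb of the principal mRNA, on 1 scale over all libraries. In control overexpression libraries the members had a median of 113 CPM per kb and ran from 9.59 ± 1.78 for Rpl7l1 to 348 ± 32.9 for Rpl41 (SD, n = 4). Rpl41, the smallest ribosomal protein, was followed by Rpl15 at 339 ± 29.2 CPM per kb and Rpl31 at 308 ± 27.6, and the libraries of these 3 genes overlapped in range. At the low end stood Rps20 at 17.6 ± 1.12 CPM per kb and Rpl22 at 21.5 ± 2.18, above Rpl7l1, which encodes a nucleolar relative of Rpl7 and not a usual ribosome component. The Ptbp1 overexpression libraries had Rpl41 and Rpl15 at the top and the same 3 genes at the bottom, with Rpl41 at 400 ± 55.8 and Rpl7l1 at 10.6 ± 1.52 CPM per kb (SD, n = 5), and a Spearman correlation with the controls of 0.995 over the 79 members. The highest member was 36.3 times the lowest among the control overexpression libraries. The upper ranks depend on the length used. Over the length of all exons of a gene joined, an alternative chosen after seeing the data, Rpl15 and Rpl31 had 128 and 130 CPM per kb in the controls (ranks 27 and 26 of 79) and Rpl41 264 (rank 3), while Rpl7l1 and Rps20 remained the lowest. With Ptbp1 Rpl41 then ranked 1 and Rpl15 30. For Rps20 both lengths are 3706 bases, so its value could not change. The median mRNA length of the members is 827 bases, and the low place of Rps20 holds for this long annotated transcript.

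The silencing experiment gave a wider spread of member levels. Scrambled shRNA libraries had a median of 60.9 CPM per kb, with Rpl31 the highest at 480 ± 102, Rpl15 next at 402 ± 117 and Rpl7l1 the lowest at 2.79 ± 2.18 (SD, n = 5), 172 times lower than Rpl31. Over all exons joined, Rpl31 ranked 3 and Rpl15 6 there, at 202 and 152 CPM per kb, and Rpl7l1 was again the lowest. Libraries labelled Ptbp1 shRNA had a median of 69.5 CPM per kb, with Rpl31 at 453 ± 169 and Rpl7l1 at 5.54 ± 3.21 (SD, n = 4). The Spearman correlation of member levels with the control overexpression libraries was 0.657 for scrambled and 0.621 for Ptbp1 shRNA libraries, over 79 members that share libraries and depth. The coefficient of variation of a member among libraries of 1 group had a median of 31.1% (scrambled) and 36.7% (Ptbp1 shRNA), against 9.33% and 10.2% with Ptbp1 and control overexpression. Genes of the same range of levels had medians of 37.7%, 43.3%, 11.8% and 11% in the same order.

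**Figure D2:**
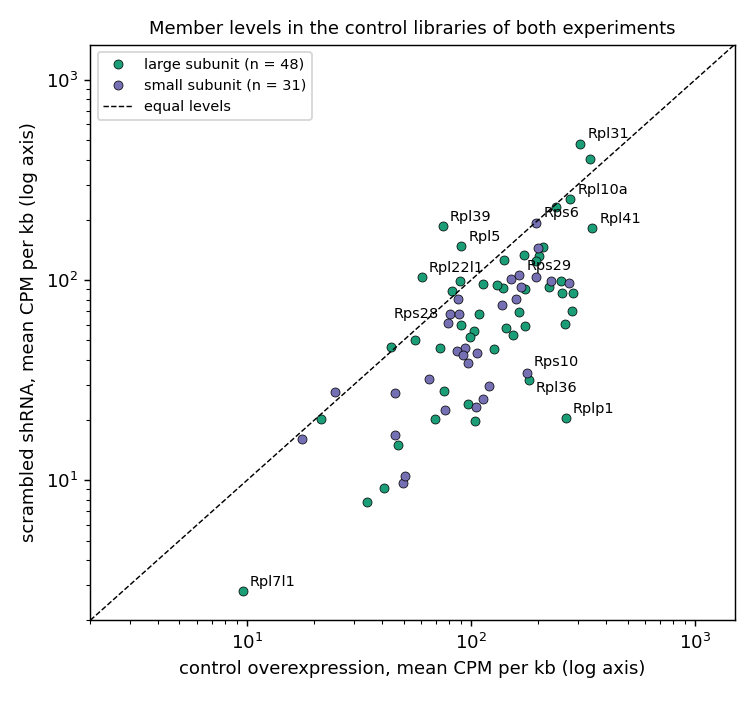
Mean level of each member in scrambled shRNA libraries (n = 5) against control overexpression libraries (n = 4), in CPM per kb on log axes, coloured by subunit, with a dashed line of equal levels. Most members lie under the line, Rplp1 farthest (20.5 against 264 CPM per kb), whereas Rpl39, Rpl22l1, Rpl5 and Rpl31 lie above it.

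Rpl10a, Rpl22 and the stalk genes were followed in every group. Rpl10a encodes the protein that carries the tag in most TRAP mice, and Rpl22 the one tagged in the related RiboTag mice. The labels do not name the tag used here. Rpl10a had 165, 244, 212, 212 and 90.6 CPM in scrambled, 155, 237, 143 and 150 in Ptbp1 shRNA, 236, 225, 188 and 161 in control and 231, 223, 173, 188 and 170 in Ptbp1 overexpression libraries, and all 4 groups overlapped. Rpl22 had means of 41.4 ± 21.3, 30.5 ± 13.0, 43.9 ± 4.47 and 47.1 ± 5.01 CPM in the same order (SD, n = 5, 4, 4 and 5), again with overlap. The stalk of the large subunit, which recruits elongation factors, is built from Rplp0 and pairs of Rplp1 and Rplp2. In control overexpression libraries Rplp1 and Rplp2 had 264 ± 28.7 and 282 ± 30.8 CPM per kb and Rplp0 40.7 ± 5.05 CPM per kb (SD, n = 4). Over all exons joined Rplp2 had 120 CPM per kb there. For Rplp0 and Rplp1 both lengths are the same, so their values could not change. In scrambled shRNA libraries they had 20.5 ± 6.24, 70.2 ± 28.5 and 9.17 ± 3.82 CPM per kb (SD, n = 5).

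The next question was whether a vector against Ptbp1 moved ribosomal protein mRNAs on neuronal ribosomes. No member passed the test between Ptbp1 shRNA and scrambled shRNA libraries, where 0.0% of 14656 genes passed it (edgeR's quasi-likelihood test with Benjamini-Hochberg adjustment at 0.05). At an unadjusted p below 0.05 the count was 6 of 79 members, or 7.59%, against 11.2% of all genes. DESeq2 called 431 genes and limma-voom 69, with no member among them. The log2 fold change was above 0 for 48 of 79 members (all genes, 51.2%), with a median of 0.16 against 0.03 over all genes. It was 0.00 for the 48 large-subunit members, of which 24 were above 0, and 0.33 for the 31 small-subunit members, of which 24 were above 0.

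Individual libraries weighed on these medians. Without Ptbp1 shRNA replicate 4, the library with the largest member share, the median of all members was 0.01 with 42 of 79 above 0, and without replicate 2 it was 0.08 with 46 above 0. The median of the small-subunit members stayed between 0.23 and 0.54 when any 1 library was left out. With Ptbp1 shRNA replicate 2 and scrambled shRNA replicate 5 left out together, it was 0.38 and that of the large-subunit members 0.10. Over all genes these 2 libraries had most strongly covered exon stretches at 0 counts. Of 533 such stretches in members they lacked 7 each, as did Ptbp1 shRNA replicate 1, and Ptbp1 shRNA replicate 4 lacked 9.

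The members at the upper end were Rps12, Rps2, Rplp2 and Rpl18. Rps12, a protein of the small-subunit head (gene at chr10:23785183-23787275 in GENCODE M21, build GRCm38), had 24.1, 91.6, 3.83 and 17.2 CPM with the Ptbp1 shRNA and 20.1, 9.14, 10.1, 26.7 and 7.82 CPM with the scrambled shRNA. Only Ptbp1 shRNA replicate 2 stood above the scrambled range. Its log2 fold change was 1.21 (SE 0.745, edgeR adjusted p = 0.597) and 0.02 without that library. Rps2, which lies at the mRNA entry of the small subunit, had 18.6, 64.9, 40.6 and 83.9 CPM against 31.7, 24.2, 27.3, 28.6 and 9.58 CPM. It was above every scrambled library in 3 of 4 Ptbp1 shRNA libraries, with a log2 fold change of 1.10 (SE 0.491, edgeR adjusted p = 0.428). Rplp2 had 23.9, 136, 61.7 and 47.6 CPM against 27.9, 38, 21.6, 19.6 and 50.5 CPM, overlapping in 2 of its 4 values. Its log2 fold change of 1.09 (SE 0.492, edgeR adjusted p = 0.436) became 0.49 without replicate 2. Rpl18 followed at 1.07 (SE 0.556, edgeR adjusted p = 0.511), with 14.1 to 49.2 against 8.92 to 29.5 CPM.

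Rps27a was the only member whose groups did not overlap, and it was singled out after its values were seen. Its product is made as a fusion with ubiquitin, which is cleaved off. It had 95.9, 67.2, 62.2 and 147 CPM with the Ptbp1 shRNA against 56.4, 51.0, 59.6, 43.6 and 32.4 CPM with the scrambled shRNA. Of all genes, 2.37% were higher and 2.48% lower without overlap. The log2 fold change was 0.94 (SE 0.340), and the member did not pass the test (edgeR adjusted p = 0.312).

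At the lower end stood Rps10, Rps18, Rpl5 and Rpl12. Rps10, also of the small-subunit head (chr17:27630418-27636669), had 8.61, 4.29, 9.83 and 13.2 CPM with the Ptbp1 shRNA and 16.5, 38.2, 8.20, 22.4 and 24.8 CPM with the scrambled shRNA. Scrambled shRNA replicate 3 alone lay within the range of the other group. The log2 fold change of -1.29 (SE 0.595, edgeR adjusted p = 0.445) lay between -1.54 and -0.998 when 1 library was left out. Rpl5, which with Rpl11 and 5S rRNA forms the particle that binds Mdm2, had 190, 191, 141 and 297 CPM against 387, 270, 292, 212 and 352 CPM. Its log2 fold change was -0.56 (SE 0.262, edgeR adjusted p = 0.452), and Ptbp1 shRNA replicate 4 overlapped the scrambled libraries. Rps18 and Rpl12 had log2 fold changes of -0.61 (SE 0.516) and -0.54 (SE 0.458) and did not pass (edgeR adjusted p = 0.73 and 0.728).

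Among the other members followed throughout, Rps6, the substrate of the S6 kinases, had 161, 180, 159 and 275 CPM with the Ptbp1 shRNA and 187, 171, 137, 184 and 172 CPM with the scrambled shRNA. Rpl3, which lies at the peptidyl transferase centre, had 67.6 to 108 against 90.4 to 162 CPM. Rpsa, the laminin receptor precursor of the small subunit, had 9.73 to 51.8 against 10.3 to 31.3 CPM, and the paralogs Rpl22l1 and Rpl7l1 had 46.7 to 94.5 against 43.4 to 76.8 and 5.4 to 17.7 against 1.83 to 12.1 CPM. All 5 overlapped between the groups. In a fit in which all 18 libraries share 1 estimate of spread, 4 members passed, Rps27a, Rpl10 and Rps2 higher and Rps10 lower. The same fit called 9.98% of 17779 genes, and the spread of the overexpression libraries, which enters it, was far smaller.

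**Figure D3:**
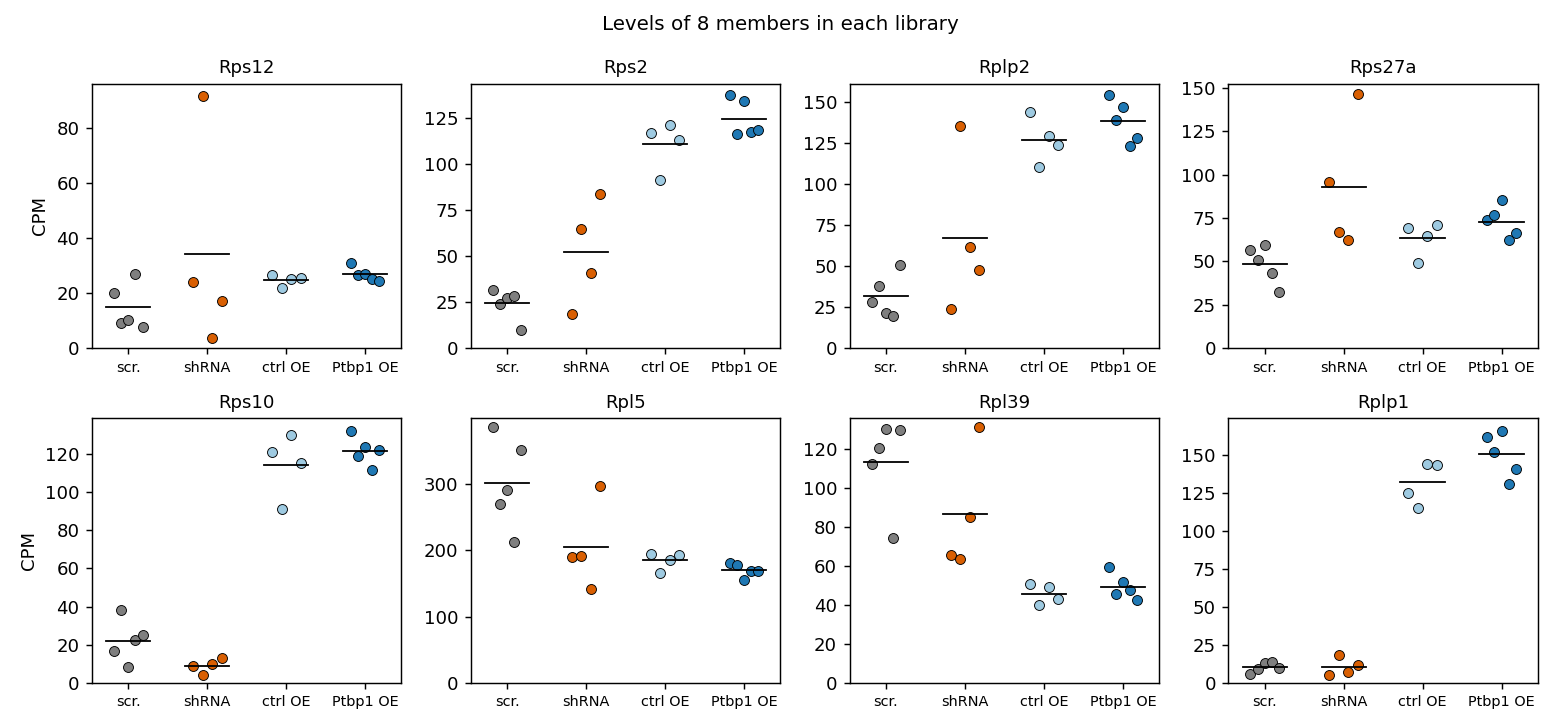
Levels of 8 members in each library (CPM, linear axes from 0), with points for libraries and a line for each group mean; scr. is scrambled shRNA, OE overexpression. In the silencing libraries the values of Rps12 run from 3.83 to 91.6 CPM, and Rplp1 lies at 5.12 to 18.4 CPM there against 115 to 166 CPM in the overexpression experiment.

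With Ptbp1 overexpression the log2 fold changes of members ran from -0.12 for Rpl5 to 0.23 for Rps28. None passed the test, against 0.0425% of 16480 genes (0.0364% higher and 0.00607% lower, edgeR's quasi-likelihood test), and 2 of 79 had an unadjusted p below 0.05 (2.53%, all genes 4.78%). DESeq2 and limma-voom also called no member, and 40 and 8 genes in all. The log2 fold change was above 0 for 71 of 79 members (all genes, 50%), with a median of 0.10, or 1.07-fold, against 0.00 over all genes. The medians of both subunits were alike, 0.10 each, and no member's groups failed to overlap, against 1.12% of genes higher and 0.649% lower without overlap. Of single libraries, control overexpression replicate 2, the control with the lowest member share, weighed most on this small shift. Without that library the median was 0.03 and 58 of 79 members were still above 0, and without any other 1 library the median was 0.07 to 0.13.

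The ends of the distribution were near each other. Rps28 had 38.7, 35.8, 38, 35.3 and 32.0 CPM with Ptbp1 and 30.5, 26.0, 31.2 and 34.4 CPM with the control vector. That is a log2 fold change of 0.23 (SE 0.106, 95% interval 0.003 to 0.46, edgeR adjusted p = 0.974), with 4 of 5 Ptbp1 libraries above every control. Rpl36 (0.22, SE 0.108), Rpl36a (0.21, SE 0.108) and Rps21 (0.21, SE 0.112) followed, each with overlapping groups and an edgeR adjusted p of 0.974. Rpl5 was lowest, with 182, 178, 155, 169 and 169 CPM against 194, 166, 185 and 194 CPM and a log2 fold change of -0.12 (SE 0.0784, 95% interval -0.29 to 0.05, edgeR adjusted p = 0.974). Rpl21 (-0.06), Rpl10a (-0.04) and Rpl31 (-0.03) were next, and each was above 0 without control overexpression replicate 1. The stalk genes Rplp0, Rplp1 and Rplp2 had 0.18, 0.18 and 0.12, Rps6 -0.01 and Rpl3 -0.02, and none of them passed.

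**Figure D4:**
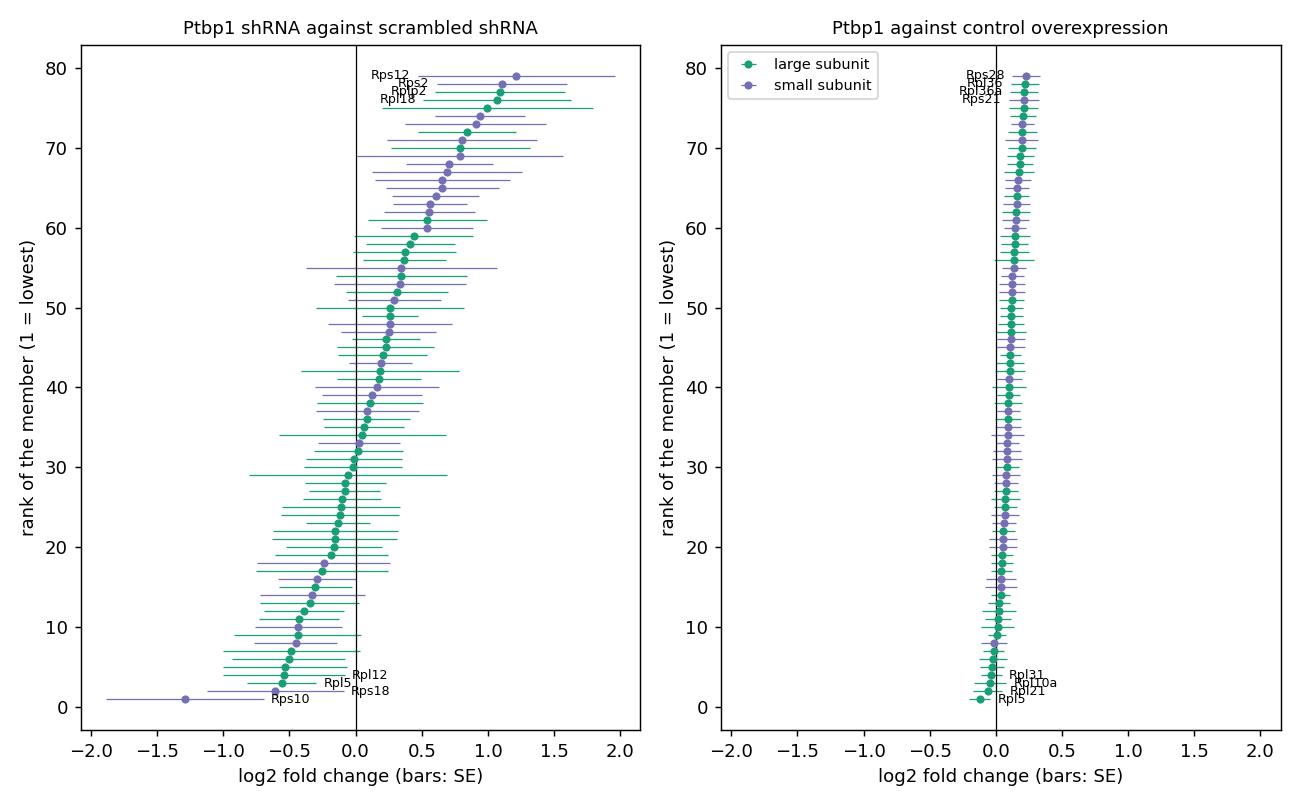
Log2 fold change of the 79 members, ranked within each comparison, for Ptbp1 shRNA against scrambled shRNA (left) and Ptbp1 overexpression against its control (right), on the same horizontal axis with bars for the SE and colours for the subunit. The left values run from -1.29 to 1.21 and the right ones from -0.12 to 0.23, and no member passed the test in either comparison.

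The responses to both vectors were then compared directly, as the response to overexpression minus that to the shRNA in a fit over all 18 libraries. No member passed, against 0.225% of 17779 genes (edgeR's quasi-likelihood test), and 2 had an unadjusted p below 0.05 where 14.6% of all genes did. DESeq2 called 667 genes and limma-voom 30, again without a member. The value was above 0 for 36 of 79 members (all genes, 49.9%), with a median of -0.03. At the ends lay Rps10 at 1.38 (SE 0.474, edgeR adjusted p = 0.172) and Rpl12 at 0.69 (SE 0.464), and Rps12 at -1.09 (SE 0.795) and Rplp2 at -0.97 (SE 0.495). Rps12 turned to 0.09 without Ptbp1 shRNA replicate 2.

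Splicing of member transcripts was read from counts per exon bin, the numbered stretches into which a flattened annotation divides a gene. Of the members, 62 had a bin identifier of their own and 16 shared one with an overlapping gene. None of 610 member bins passed the test of unequal change within a gene for the shRNA (edgeR's diffSpliceDGE), where 0.0012% of 83164 bins did. None of 737 member bins passed for overexpression, where 0.034% of 117580 bins did. At an unadjusted p below 0.05 there were 1 and 3 member bins, or 0.164% and 0.407%, against 1.96% and 1.37% of all bins. A fit with limma's diffSplice also called none, with 10 and 7 at an unadjusted p below 0.05 (1.64% and 0.95%, all bins 2.67% and 2.45%).

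The largest differences lay between the control groups, scrambled shRNA against control overexpression. Here the experiment, the vector and the preparation cannot be told apart. Of the 79 members, 48 were lower and 4 higher in scrambled shRNA libraries at an edgeR adjusted p below 0.05, against 14.8% of 16249 genes lower and 19.4% higher. The log2 fold change was above 0 for 9 of 79 members (all genes, 50.2%). Its median was -0.95, that is 1.94-fold lower, with 0.01 over all genes. The medians of the large and small subunit were -0.93 and -1.01, with 28 of 48 and 20 of 31 members lower. In 47 members every scrambled library lay under every control library, and in 4 above, against 21.8% and 18.1% of all genes. When 1 library was left out, 41 to 51 members were lower and 3 to 5 higher. Other measures also differed between these groups. Excitatory neuron markers summed to 5140 to 7266 against 3205 to 3842 CPM, astrocyte markers to 1069 to 1647 against 526 to 764 CPM and hippocampal markers to 177 to 260 against 274 to 298 CPM. The genes within these lists were mixed. Of those tested, 8 excitatory markers were above 0 and 4 below, 6 and 5 astrocyte markers, and 3 and 4 hippocampal markers. Past the threshold, 4 excitatory markers were higher and 1 lower (Slc17a7), and 2 astrocyte markers higher and 2 lower (Aldh1l1 and Aldoc). Of the hippocampal markers only Mpped1 passed, as lower. The mitochondrial share was 0.184 to 0.537% against 0.0627 to 0.11%, and 14841 to 17013 against 19893 to 20719 genes were detected. Their part in the lower member levels was not tested. The tables of the experiments were scaled together here, and scaling by library size alone gave a member median of -1.51 with -0.54 over all genes, and 66 members lower and 1 higher.

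Rplp1 was the lowest (chr9:61913284-61914542, build GRCm38). It had 5.72, 9.14, 12.8, 13.5 and 9.93 CPM in scrambled shRNA libraries against 125, 115, 144 and 144 CPM in the controls. The groups were wide apart, with a log2 fold change of -3.70 (SE 0.266, edgeR adjusted p = 4.14e-06), or 13.0-fold lower. Its stalk partners Rplp0 and Rplp2 were 4.48-fold and 4.06-fold lower (log2 -2.16, SE 0.329, and -2.02, SE 0.281), with 6.4 to 20 against 45.1 to 59.9 CPM and 19.6 to 50.5 against 110 to 144 CPM. Rpl36 had 15.3, 7.8, 8.4, 9.88 and 19.4 CPM against 69.1, 59.7, 72.5 and 75.6 CPM, a log2 fold change of -2.52 (SE 0.314). Rpl8, a protein of the catalytic core, had 5.71 to 30.9 against 81.3 to 110 CPM (log2 -2.41, SE 0.425), and Rps10 8.2 to 38.2 against 90.9 to 130 CPM (log2 -2.39, SE 0.367). Rps3 and Rps2 of the mRNA entry and Rpsa were lower by -2.38, -2.20 and -2.29 on the log2 scale, and Rpl3 by -1.58 (90.4 to 162 against 281 to 372 CPM).

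Further members lower past the threshold included, in the large subunit, Rpl6, Rpl7, Rpl7a, Rpl7l1, Rpl9, Rpl10, Rpl11, Rpl13, Rpl14, Rpl17, Rpl18, Rpl19, Rpl21, Rpl28, Rpl29, Rpl32, Rpl34, Rpl35, Rpl37, Rpl37a and Rpl41. In the small subunit they included Rps3a1, Rps4x, Rps9, Rps13, Rps14, Rps15, Rps16, Rps18, Rps19, Rps25, Rps26, Rps27 and Rps29. The log2 fold changes of those named here ran from -2.17 for Rps14 to -0.62 for Rpl21. Rpl37, Rps19, Rps29, Rps25, Rpl21, Rpl7l1 and Rpl17 were near the threshold and lost the call under 1 to 9 of the 16 alternatives.

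The 4 higher members were Rpl39, Rpl22l1, Rpl5 and Rpl31. Rpl39, a small protein at the exit tunnel of the large subunit (chrX:37082520-37085402), had 112, 121, 130, 74.2 and 130 CPM in scrambled shRNA against 50.8, 39.8, 49.3 and 42.9 CPM in control overexpression libraries. All scrambled libraries were above all controls, with a log2 fold change of 1.30 (SE 0.203, edgeR adjusted p = 0.000539), or 2.46-fold. Rpl22l1, the paralog that can take the place of Rpl22, had 43.4, 69.4, 76.8, 46.5 and 49.4 CPM against 35.9, 26.6, 33.5 and 37.3 CPM. Its log2 fold change of 0.76 (SE 0.244, edgeR adjusted p = 0.0314) lost the call under 8 of 16 alternatives. Rpl5 had 387, 270, 292, 212 and 352 CPM against 194, 166, 185 and 194 CPM, a log2 fold change of 0.70 (SE 0.173, edgeR adjusted p = 0.00936). Rpl31, also at the exit tunnel, had 275, 321, 258, 251 and 407 CPM against 216, 197, 187 and 175 CPM, with 0.63 (SE 0.163, edgeR adjusted p = 0.0118). With library size alone as the scale, Rpl39 kept a log2 fold change of 0.74 and its call, and Rpl22l1, Rpl5 and Rpl31 had 0.21, 0.13 and 0.06 and no call. Upper quartile scaling also kept the call of Rpl39 alone among these 4.

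Several members followed throughout did not pass here. Rps6 had 187, 171, 137, 184 and 172 CPM in scrambled shRNA and 195, 157, 170 and 165 CPM in control overexpression libraries, a log2 fold change of -0.03 (SE 0.140, 95% interval -0.33 to 0.28). Rpl10a had -0.15 (SE 0.253, 95% interval -0.70 to 0.41), Rpl22 -0.10 (SE 0.345, 95% interval -0.86 to 0.66) and Rps12 -0.75 (SE 0.406, 95% interval -1.65 to 0.14). Of the 79 members, 70 had values below 0 between the control groups and 9 above.

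Between the control groups, members of higher GC content tended to have lower log2 fold changes, as did protein-coding genes in general. The rule did not use GC content. GC content is the mean over the protein-coding transcripts of a gene. Across the 79 members the Spearman correlation of the log2 fold change with GC content was -0.573, and with mRNA length 0.027. Over 13289 protein-coding genes tested the correlations were -0.65 and 0.255, and the genes share libraries, so no test is given. The 14 members with a GC content of at least 56% had a median of -2.14. Members of 52 to 56% (n = 24) had -1.15, those of 48 to 52% (n = 31) -0.62 and the 10 members under 48% -0.64. All protein-coding genes of the same classes had -1.48, -0.65, 0.16 and 1.00, and those with an mRNA of at most 1644 bases, a length that covers 9 in 10 members, -1.87, -0.85, -0.19 and 0.56. In each GC class the members' median lay below both. For the shRNA and for overexpression the correlation of member changes with GC content was 0.087 and 0.236.

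**Figure D5:**
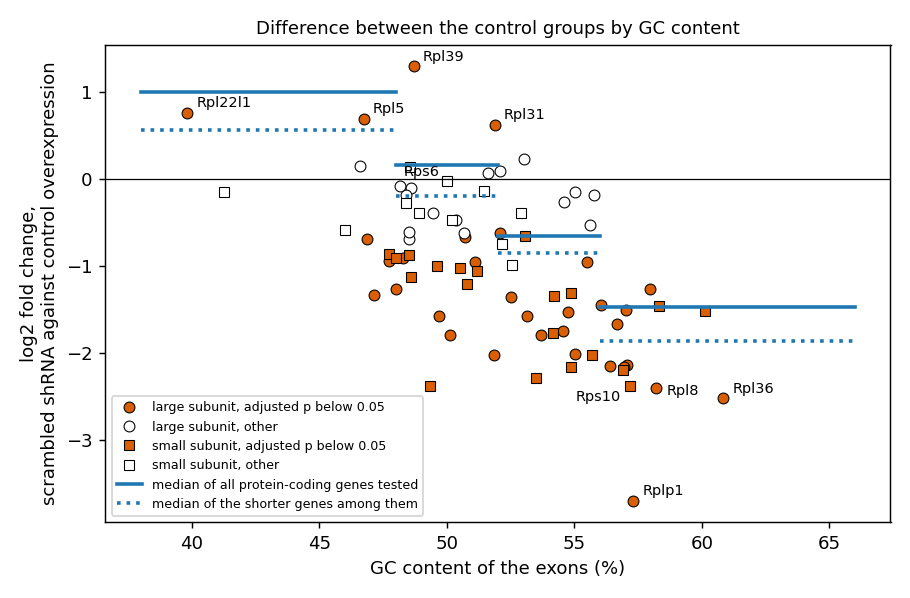
Log2 fold change of each member between scrambled shRNA and control overexpression libraries against its GC content (percent, mean over its protein-coding transcripts), filled where the edgeR adjusted p is below 0.05, circles for the large and squares for the small subunit. Solid lines give the median of all protein-coding genes tested in 4 GC classes and dotted lines that of the shorter ones; members fall from medians near -0.62 to -2.14 at the highest GC content, with Rplp1 lowest at -3.70.

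Coverage along the members also differed between the experiments. Bin coordinates were rebuilt from GENCODE M21, with a transcript limit that gave the same number of bins for 2666 of 3000 genes tried. They were used for the 51 members whose number of bins matched. The exonic length joins all annotated transcripts (Rpl11, 2697 bases against an mRNA of 833), so its end need not be that of the mRNA. Over these 51 members, the last 25% of that length at the 3′ end held a median of 23.6 to 32.3% of bin counts in the silencing libraries. In the overexpression libraries it held 18.1 to 20.4%. For Rpl3 it held 55.1 to 65.8% against 41.8 to 44.6%, for Rpl8 34.0 to 65.9% against 23.0 to 25.4% and for Rpl15 25.7 to 45.7% against 15.3 to 23.4%. For the higher member Rpl39 the ranges overlapped, at 34.1 to 39.5% and 33.6 to 37.6%. They also overlapped for members that were lower between the control groups. Rpl36 had 14.9 to 26.4% and 16.8 to 18.7%, and Rpl41 had 39.0 to 48.2% and 40.1 to 43.4%. Rpl15, whose ranges were apart, was not lower between the control groups (log2 fold change 0.23). Among 533 strongly covered member bins, each silencing library lacked all reads in 1 to 9, and no overexpression library lacked them in any. The part of GC content and coverage in the lower member levels was not tested.

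Members with a pyrimidine run of at least 8 at the start were set beside those with a shorter one. For the shRNA their median log2 fold changes were 0.16 (n = 20) and 0.08 (n = 39), for overexpression 0.09 and 0.11, and between the control groups -1.17 and -0.91. Rps10, with the run of 13 shown above, and Rplp2, with one of 10, lay at opposite ends of the shRNA comparison.

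Other genes of translation and ribosome assembly were read from lists (18 other TOP genes, 34 of ribosome biogenesis, 20 mTOR and TOP regulators, 4 of the p53 and 5S particle pathway and 77 mitochondrial ribosomal proteins). None of these passed the test for the shRNA or for overexpression. For the shRNA, 9 of 18 other TOP genes were above 0, with a list median of 0.07, and the smallest p was that of Eif4b, an initiation factor, at 0.96 (edgeR adjusted p = 0.198). Larp1, the TOP mRNA binding protein, had 1.06 (edgeR adjusted p = 0.224) with a list median of 0.00 and 10 of 20 above 0. Tsr1, which binds the maturing small subunit, had -1.04 (edgeR adjusted p = 0.065), with 19 of 34 biogenesis genes above 0. Cdkn1a, a target of p53, had 72.8 to 304 CPM with the Ptbp1 shRNA against 14.1 to 34.0 CPM, a log2 fold change of 2.67 (edgeR adjusted p = 0.062). Of the 4 genes in its list 3 were above 0 and 1 below, with values from -0.65 to 2.67. For overexpression the list medians were 0.04 (other TOP genes), 0.01 (biogenesis), -0.03 (regulators), -0.12 (p53 and 5S particle) and 0.02 (mitochondrial ribosomal proteins), and the smallest p values belonged to Fau, Fbl, Larp1, Cdkn1a and Mrps6. In the difference of responses Tsr1 (1.03) and Cdkn1a (-2.31) passed, each with an edgeR adjusted p of 0.0394.

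Between the control groups, where 14.8% of all genes were lower and 19.4% higher, 5 of 18 other TOP genes were lower and 2 higher. Among the lower ones, Fau, which encodes a ribosomal protein fused to a relative of ubiquitin, had a log2 fold change of -1.94, the elongation factors Eef1g and Eef2 had -1.73 and -1.70, and Eif4b had -0.44. Pabpc1 (0.84), the poly(A) binding protein, and Nap1l1 (0.50) were higher. Of the biogenesis genes 5 were lower (Nop2 at -3.17, Bop1, Nhp2, Ubtf and Bysl) and 8 higher (the nucleolar Npm1 at 2.17, Tsr1 at 1.73, Nop56, Nop58, Ncl, Gnl2, Gnl3 and Dkc1). Of the regulators 3 were lower (Akt1s1, Tsc2 and Eif4g1) and 5 higher (the S6 kinase gene Rps6kb1 at 1.91, Larp4, Eif4e, Rheb and Cnbp). Mitochondrial ribosomal proteins had 17 lower and 4 higher of 77, with a median of -0.47. In the p53 and 5S particle list Cdkn1a (-0.87) was lower and Mdm2 (1.36) and Mdm4 (0.88) were higher.

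Some limits bear on single members. Ribosomal protein genes have many processed pseudogenes and some host small nucleolar RNAs, and 16 members shared a bin identifier with an overlapping gene, so reads may be split between them. The annotated pseudogenes with matching symbols held 0.00425 to 0.0191% of gene counts.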

How the data were processed

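Count tables deposited by the authors hold whole-number, unnormalized counts per Ensembl gene for each experiment and, per library, counts per exon bin. STAR 2.5.3a and HTSeq were used with build mm10, per the submitters' processing notes. Sources used here do not give the annotation release or whether strand was used. The last 5 lines of each exon file, totals of reads in no single bin, were left out.

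Fits used edgeR 4.0.16 under R 4.3.3, separately for each experiment (filterByExpr, TMM scaling, robust quasi-likelihood F test, Benjamini-Hochberg adjustment at 0.05 over all genes tested). Control groups and the difference of responses were fitted with their libraries scaled together. SE is the size of the log2 fold change over the square root of F. Levels are CPM on TMM sizes of all 18 libraries. Lengths, GC content and gene coordinates come from GENCODE M21. Exon bins were tested with diffSpliceDGE. DESeq2 1.42.0, limma 3.58.1, other scalings, no filter, a shared spread and each library left out were alternatives. The scripts were tested on simulated data. Members and lists were chosen with earlier results of these data known. Named genes are members that were called, the ends of each comparison and of the levels per length, and Rplp0, Rplp1, Rplp2, Rpl10a, Rpl22, Rpl22l1, Rpl7l1, Rpsa, Rps6 and Rpl3. Some genes that the rule names are not reported here. From each list of translation genes other than the mitochondrial ribosomal proteins the called genes are named, or the gene with the smallest p.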

Additional observations from a re-analysis of the deposited data

Results flagged for a closer look

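In 12 of 240 sets of libraries of 1 group (58 members, the member share and the subunit ratio in 4 groups), 1 library stood apart from the rest by more than the 95% limit of Dixon's test, which chance does in about 1 of 20 sets. Control overexpression replicate 2 was the lowest for 6 members: Rps21 (27.3 CPM, others 35.9 to 37.5), Rps14 (56.8, others 80.9 to 81.9), Rplp0 (45.1, others 57.5 to 59.9), Rpl9 (142, others 161 to 164), Rpl7 (92.6, others 121 to 124) and Rps3a1 (161, others 197 to 203). That library had 9 of 79 members above the mean of its group. Ptbp1 shRNA replicate 2 was the highest for Rpl10a (237 CPM, others 143 to 155) and Rpl10 (133, others 69.8 to 73.0). Scrambled shRNA replicate 5 was the highest for Rpl12 (106 CPM, others 34.5 to 52.1) and Rpl37a (44.1, others 27.7 to 30.2). Scrambled shRNA replicate 2 was the highest for Rpl18 (29.5 CPM, others 8.92 to 12), and control overexpression replicate 1 for Rpl12 (63.9 CPM, others 50.5 to 51.9).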

How the results depend on the processing

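No member passed in the shRNA, overexpression or difference comparison under any alternative run, with 1 exception. When all 18 libraries shared 1 spread, 4 members passed for the shRNA, in a fit that called 9.98% of all genes. Between the control groups 44 to 67 members passed under the alternatives run, which called 25.4 to 50.1% of all genes. Their median was -1.51 with library size only and -1.17 with upper quartile scaling, against -0.54 and -0.20 over all genes. With 1 library left out the medians lay at 0.01 to 0.20 (shRNA), 0.03 to 0.13 (overexpression) and -1.04 to -0.89 (controls). In an alternative chosen after seeing the data, the 2 silencing libraries least evenly covered over all genes were left out together. For the shRNA Rps12 then turned to -0.13, Rplp1 to -0.35 and Rpl22 to 0.0179. The difference of Rps12 turned to 0.26 and Rpl10a between the controls to 0.0334. Limma-voom gave Rplp1 -0.30 (shRNA) and Rpl10a 0.00981 (overexpression), library size only Rpl10a 0.00406 (shRNA), and upper quartile scaling Rps6 0.00189 (overexpression). With 1 library left out, signs turned within these ranges. For the shRNA they were -0.36 to 0.28 (Rplp1), -0.30 to 0.0176 (Rpl10a), -0.0257 to 0.33 (Rpl22l1) and -0.0281 to 0.27 (Rps6). For overexpression they were -0.13 to 0.0545 (Rpl21), -0.14 to 0.0394 (Rpl10a), -0.0784 to 0.0218 (Rpl31), -0.0652 to 0.0529 (Rps6) and -0.11 to 0.0213 (Rpl3). The difference of Rps12 ran from -1.46 to 0.0938, and between the controls Rpl10a ran from -0.26 to 0.0334, Rpl22 from -0.43 to 0.0646 and Rps6 from -0.0709 to 0.0568. The cause of these turns was not tested. No paired analysis was possible because the labels give the groups no shared replicate numbers. For the shRNA the median SE of a member was 0.388 on the log2 scale, so that changes as small as those with overexpression were not detectable.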
